A study of Mus musculus with 12 samples.

Results

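The genes described here are the 9 rows of the count table, out of 24495, that carry the symbols Rara, Rarb, Rarg, Crabp1, Crabp2, Stra6, Dhrs3, Cyp26a1 and Cyp26b1. They were chosen for their parts in sensing, carrying, taking up and breaking down retinoic acid. Their values were not the reason for the choice, but earlier results of these data were known when it was made. All 9 passed the filter on low counts, which left 15532 genes to be tested. The transcripts were measured by RNA-seq of polyadenylated RNA in 12 libraries, 6 groups of 2 biological replicates. The cells were CCE-Nanog-GFP mouse embryonic stem cells (mESCs), a line that carries a GFP reporter of Nanog and was sorted for GFP. One stable line carried a scrambled shRNA (shSC), labelled WT in GEO, and the other an shRNA against cathepsin L (shCTSL), labelled CTSL KD. Both shRNAs were delivered by lentivirus. Day 0 cells were grown on gelatin with LIF, the cytokine that keeps mESCs undifferentiated. Day 2 and Day 4 samples were embryoid bodies (EBs) kept under rotation without LIF and with all-trans retinoic acid. No group of EBs without retinoic acid was analysed here, so loss of LIF, aggregation and retinoic acid cannot be told apart in any change between days. The sources used here do not say which shRNA against CTSL was sequenced, and each line is a single stable line.

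Retinol is carried in blood and enters many cells through the membrane receptor STRA6. Inside the cell it is oxidised to retinal and then to retinoic acid, which binds the retinoic acid receptors RARα, RARβ and RARγ; paired with retinoid X receptors, these sit on DNA at repeated short motifs and switch transcription on when the ligand is bound. The pathway is known for feedback: DHRS3 turns retinal back into retinol, the CRABP proteins hold retinoic acid in the cytoplasm or hand it to its targets, and the CYP26 enzymes oxidise it for disposal.

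Promoter windows are shown first, because 2 of the genes with the largest changes below, Rarb and Cyp26a1, hold in them the direct repeat with a gap of 5 bases (DR5) that is the classic binding site of the receptors. A script searched both strands of each RefSeq window, from 250 bases before to 50 bases after the annotated start, for a pair of repeat units in the same orientation with a gap of 5 bases. Each unit could be AGGTCA, the variant AGTTCA, the variant GGGTCA or the variant GGTTCA. The windows come from RefSeq's GRCm38.p6 table and were placed on mm9, the build of the count table, by exact match. In the sequences below, given 5′ to 3′ along each gene, the capitals mark the DR5.
Cyp26a1, chr19:37772048-37772347 (mm9, plus strand): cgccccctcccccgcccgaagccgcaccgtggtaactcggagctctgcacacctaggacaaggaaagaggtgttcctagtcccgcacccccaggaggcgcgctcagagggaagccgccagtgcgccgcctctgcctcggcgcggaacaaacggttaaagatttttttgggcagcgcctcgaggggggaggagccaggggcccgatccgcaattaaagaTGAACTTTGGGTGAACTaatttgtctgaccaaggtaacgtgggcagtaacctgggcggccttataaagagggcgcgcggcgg
Rarb, chr14:17407941-17408240 (mm9, minus strand): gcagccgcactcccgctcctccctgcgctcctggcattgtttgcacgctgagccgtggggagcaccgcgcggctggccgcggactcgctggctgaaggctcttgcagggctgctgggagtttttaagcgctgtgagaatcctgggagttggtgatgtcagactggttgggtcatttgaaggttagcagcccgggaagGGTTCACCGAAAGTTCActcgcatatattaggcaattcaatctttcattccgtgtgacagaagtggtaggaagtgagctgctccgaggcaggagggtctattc
The DR5 ended 15 bases before the start in the Cyp26a1 window, where it reads on the opposite strand, and 36 bases before it in the Rarb window. The Rarb window lies inside the annotated gene (14:17263356-17651381, mm9), at an internal start. Counts per gene do not tell from which start the Rarb reads come. Of 32851 windows, 32 (0.0974%) held a DR5 of this form. Among the 8 members with a window in the table, 17 windows in all, 2 held one. Cyp26b1, Stra6 and Dhrs3 held none. Their log2 changes from Day 0 to Day 2 in shSC, 10.26, 9.84 and 7.68, were near or above that of Rarb, 7.73. The same units with a gap of 2 bases were in 88 windows (0.268%) and with a gap of 1 base in 73 (0.222%), and neither form was in a window of a member. A match describes letters in a window and is not evidence of binding. Of the 29 other genes whose window held a DR5, 6 passed the filter, and from Day 0 to Day 2 in shSC 3 of them were called higher (Prokr2, Ppbp and Hbb-y) and 1 lower (Cfap45), where 29.3% of all genes tested were called higher and 25.3% lower. With so many genes called, the count says nothing particular about genes with a DR5. These 4 genes are named after their values were seen.

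The libraries held between 11171111 and 27155553 counts. Ctsl, the targeted gene, was at 137.2 and 147.3 normalised CPM, the count scaled to library size, in shSC and at 37.5 and 39.2 in shCTSL at Day 0, and its log2 difference between the lines was -1.89 at Day 0, -1.06 at Day 2 and -0.83 at Day 4, with adjusted p-values of 0.00246, 0.0342 and 0.0896. The level of Ctsl was lower in both shCTSL libraries than in both shSC libraries on each day. The pluripotency markers fell from Day 0 to Day 2 in 7 of 7 cases in each line, and 7 of 7 markers of endoderm rose. Of all genes tested, 29.3% were called higher and 25.3% lower in shSC, and 30.9% and 24.6% in shCTSL. In each line 4 of 5 fibroblast markers were called higher and 1 lower. For mesoderm and endothelium the counts were 3 and 1 of 6 tested, and for neural markers 1 and 1 of 7. The summed level of the pluripotency markers went from between 5631 and 5812 CPM at Day 0 to between 793.4 and 794 at Day 2 in shSC, and that of the endoderm markers from between 12.8 and 12.95 to between 267.8 and 270.9. The changes between days described below go with this change of cell state, and in these bulk samples more cells of a type and more RNA per cell cannot be told apart. The 2 shCTSL Day 2 libraries stand apart from each other, as measured over tested genes that averaged at least 5 normalised CPM. Of these genes, 9.9% differed more than 2-fold between the 2 libraries, against 0.0442% to 0.23% between the replicates of the other 5 groups. For the 9 genes, the changes of shCTSL to and from Day 2 are therefore also given below without each of these libraries, in fits where the remaining one is assumed to vary like the other groups.

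Receptor transcripts went from mostly Rarg to mostly Rarb. From Day 0 to Day 2, Rarb rose 212-fold in shSC, Rarg fell to 0.301 of its Day 0 level, and Rara, the most broadly expressed of the 3 receptors, was 1.32 times its Day 0 level, a difference under the 1.5-fold required of a call. A gene is called here when its adjusted p is under 0.05 by the quasi-likelihood test of edgeR over all 15532 genes and its change is at least 1.5-fold.

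Rarb (14:17263356-17651381, mm9, minus strand) encodes the receptor best known as a target of retinoic acid itself. In shSC it was at 0.229 and 0.496 CPM at Day 0, at 81.2 and 80.4 at Day 2, and at 197.0 and 178.7 at Day 4. The shCTSL libraries held 0.224 and 0.211 CPM, then 75.5 and 82.1, then 179.5 and 167.4. The gene was close to absent in undifferentiated cells, with 3 and 8 reads in shSC and 3 and 2 reads in shCTSL, and it kept rising between Day 2 and Day 4 in both lines. The log2 change from Day 0 to Day 2 was 7.73 (SE 0.30) in shSC and 8.45 (SE 0.42) in shCTSL, and from Day 2 to Day 4 it was 1.22 (SE 0.12) and 1.14 (SE 0.12), all 4 called. Leaving out replicate 1 or replicate 2 of shCTSL Day 2 gave 8.55 and 8.39 for the first change in shCTSL and 1.06 and 1.2 for the second, called each time. Since the Day 0 level rests on few reads, the fold is loosely bounded: the ratio of summed reads from Day 0 to Day 2 in shSC was 215, with an exact 95% interval of 120 to 431, which covers counting error only.

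Rarg (15:102065369-102087948, mm9, minus strand), the receptor that undifferentiated mESCs express most, moved the other way. It was at 304.4 and 323.1 CPM in shSC at Day 0, at 96.8 and 91.7 at Day 2 and at 61.8 and 69.1 at Day 4. The shCTSL libraries read 318.8 and 305.7, 85.7 and 90.2, and 70.4 and 77.97 CPM. Day 0 was above every EB library in both lines, and within the EBs the days did not overlap in either line. Rarg fell by 1.74 on the log2 scale (SE 0.10) from Day 0 to Day 2 in shSC and by 1.83 (SE 0.10) in shCTSL. Between Day 2 and Day 4 the log2 difference was -0.53 (SE 0.10, adjusted p = 0.00365) in shSC, under 1.5-fold, and -0.25 (SE 0.10, adjusted p = 0.10) in shCTSL. The shCTSL values were -1.75 and -0.31 without replicate 1 of shCTSL Day 2 and -1.86 and -0.21 without replicate 2, the first change called and the second not.

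Rara (11:98789132-98836256, mm9, plus strand) stayed within a narrow band, from 70.9 to 144.5 CPM over all 12 libraries. In shSC it was at 89.6 and 87.1 CPM at Day 0, 121.1 and 111.2 at Day 2, and 109.9 and 123.3 at Day 4. Its level in shCTSL was 70.9 and 74.4 CPM, then 123.1 and 144.5, then 121.5 and 120.3. Day 0 was lowest in both lines, without overlap, and the levels at Day 2 and Day 4 overlapped in shSC. The log2 change from Day 0 to Day 2 was 0.40 (SE 0.11, adjusted p = 0.0107) in shSC, not called, and 0.88 (SE 0.11, adjusted p = 7.46e-05) in shCTSL, called. The difference between these changes, 0.49 (SE 0.16), had an unadjusted p of 0.0119 and an adjusted p of 0.39, so the lines are not shown to differ in it. Without replicate 1 of shCTSL Day 2 that difference was 0.60 with an adjusted p of 0.0179, a call, and without replicate 2 it was 0.37, under 1.5-fold. The change in shCTSL itself stayed called, at 1.04 and 0.77.

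Per kilobase of exon, which allows genes to be set side by side, Rarg made up 79.7% of the receptor transcripts at Day 0 in shSC (79.0% and 80.4% in its 2 libraries), Rara 20.2% and Rarb 0.114%. At Day 2 the 3 receptors were near parity, with Rara at 34.8%, Rarb at 33.7% and Rarg at 31.5%. At Day 4 Rarb led with 57.9%, and Rarg was down to 16.2%. The shCTSL line passed through the same order, with Rarg at 82.6% at Day 0, Rara at 39.2% at Day 2 and Rarb at 54.2% at Day 4. These shares depend on the exon lengths of the annotation, 4.57 kb for Rara, 3.29 kb for Rarb and 4.11 kb for Rarg.

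**Figure D1:**
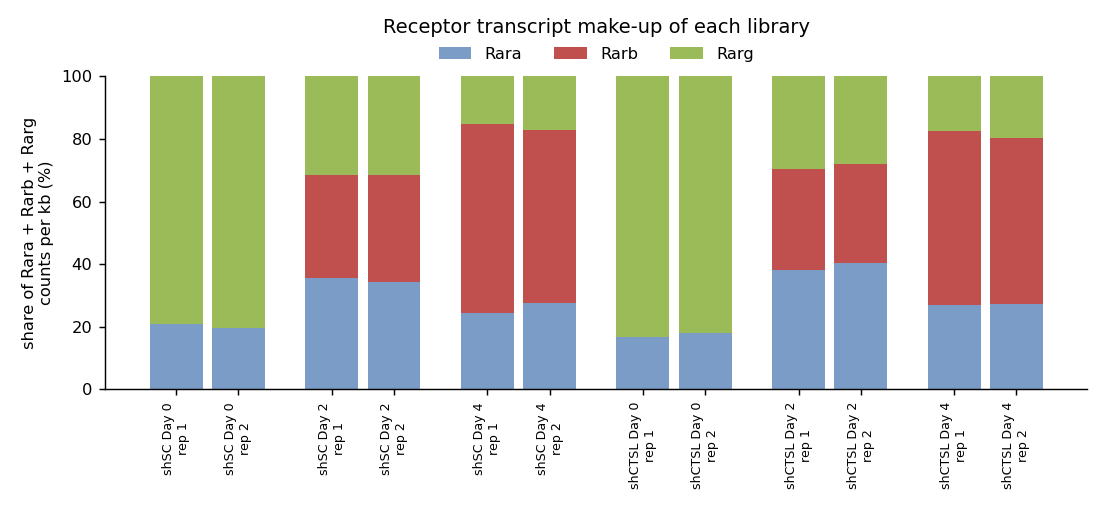
Each bar is 1 library and is split into the share of Rara, Rarb and Rarg in their summed counts per kilobase of exon, in percent. Rarg fills 79.0% to 83.3% of the bar at Day 0, and Rarb fills 52.9% to 60.5% of it at Day 4.

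The binding proteins, Crabp1 and Crabp2, peaked at Day 2 and declined by Day 4. Crabp2 (3:87752588-87757298, mm9, plus strand), whose product delivers retinoic acid to the receptors, was at 4.19 and 3.04 CPM in shSC at Day 0, at 125.9 and 123.9 at Day 2 and at 47.6 and 61.1 at Day 4. The knockdown line had 2.91 and 3.58 CPM, then 201.8 and 123.6, then 46.2 and 53.8. The 3 days did not overlap in either line. Crabp2 rose by 5.12 (SE 0.27) on the log2 scale from Day 0 to Day 2 in shSC and fell by 1.20 (SE 0.22) to Day 4. In shCTSL the corresponding changes were 5.66 (SE 0.29) and -1.70 (SE 0.22), both called. They stayed called at 5.31 and -1.33 without replicate 1 of shCTSL Day 2, and at 5.98 and -2.01 without replicate 2.

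Crabp1 (9:54612555-54620917, mm9, plus strand), linked to holding retinoic acid in the cytoplasm, changed far less. Its level in shSC was 8.69 and 7.19 CPM at Day 0, 23.2 and 21.6 at Day 2 and 10.3 and 15.1 at Day 4. In shCTSL it was 6.64 and 6.95, then 37.8 and 21.1, then 9.96 and 13.6 CPM. Day 2 was highest in both lines, and its libraries did not overlap those of the other days. The rise from Day 0 to Day 2 was 1.5 (SE 0.29, adjusted p = 0.00116) on the log2 scale in shSC and 2.11 (SE 0.30, adjusted p = 0.000158) in shCTSL, where it was 1.68 without replicate 1 of Day 2 and 2.48 without replicate 2. From Day 2 to Day 4 in shCTSL the change was -1.31 (SE 0.28, adjusted p = 0.00585), and it was -0.86 and -1.68 without these libraries in turn, called each time. Its later calls sit at the threshold: the log2 change from Day 2 to Day 4 in shSC was -0.83 (SE 0.28) with an adjusted p of 0.0463, a call that was lost when any 1 library of either line at Day 0, of shSC at Day 2 or of shCTSL at Day 4, or replicate 1 of shSC Day 4, was left out (adjusted p up to 0.309). In shCTSL the change from Day 0 to Day 4 was 0.80 (SE 0.31, adjusted p = 0.0397), and leaving out single libraries took the adjusted p to as much as 0.214.

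The pair exchanged places. Per kilobase, Crabp2 was at 0.256 and 0.293 times Crabp1 in the shSC Day 0 libraries, at 3.30 and 3.48 times at Day 2 and at 2.46 and 2.80 times at Day 4. In shCTSL the ratio ran from 0.266 to 0.313 at Day 0, from 3.24 to 3.56 at Day 2 and from 2.41 to 2.81 at Day 4. The ratio was nearly the same in the 2 shCTSL Day 2 libraries, although each gene on its own differed between them.

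Stra6 (9:57911595-58001803, mm9, plus strand), the retinol uptake receptor, went from nearly undetected to high. Of the 9 genes it had the smallest unadjusted p between the lines by edgeR at Day 2 and Day 4, but was called on neither day. In shSC it was at 0.381 and 0.124 CPM at Day 0, from 5 and 2 reads, at 224.0 and 226.9 at Day 2 and at 174.7 and 208.3 at Day 4. In shCTSL it was at 0.224 and 0.527 CPM at Day 0, at 147.1 and 167.5 at Day 2 and at 104.7 and 103.6 at Day 4. On both EB days the shCTSL libraries were the lower ones, without overlap (adjusted p by edgeR 0.222 at Day 2 and 0.133 at Day 4). The lines were also free of overlap on both EB days for Rarg, Cyp26a1, Cyp26b1 and Dhrs3, none of them called. The share of all genes without overlap was not taken. The log2 rise from Day 0 to Day 2 was 9.84 (SE 0.46) in shSC and 8.78 (SE 0.44) in shCTSL, and the ratio of summed reads in shSC, 942, had an exact 95% counting interval of 457 to 2342. From Day 2 to Day 4 the change was -0.24 (SE 0.16, adjusted p = 0.296) in shSC and -0.59 (SE 0.16, adjusted p = 0.018) in shCTSL, the latter a call only just past 1.5-fold that 8 of 22 alternatives did not keep. Without replicate 1 of shCTSL Day 2 this change was -0.71, called, and without replicate 2 it was -0.50, under 1.5-fold, while the rise to Day 2 was 8.92 and 8.69, called in both. The difference between these changes was -0.36 (SE 0.22) with an adjusted p of 1.

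Dhrs3 (4:144482730-144518112, mm9, plus strand), the reductase that returns retinal to retinol, rose with Rarb and likewise had its highest mean at Day 4. Its level in shSC was 0.991 and 0.744 CPM at Day 0, 178.4 and 176.1 at Day 2 and 285.7 and 286.1 at Day 4. In shCTSL it was 0.970 and 0.948, then 250.6 and 200.1, then 255.6 and 274.6. All 6 groups but the 2 at Day 0 were free of overlap with the next. Dhrs3 rose by 7.68 (SE 0.21) on the log2 scale to Day 2 in shSC and by a further 0.69 (SE 0.12, adjusted p = 0.00186) to Day 4. In shCTSL the first change was 7.86 (SE 0.23), called, and the second 0.24 (SE 0.12, adjusted p = 0.169), not called, and the difference between the second changes, -0.46 (SE 0.17), had an adjusted p of 0.963. Without replicate 1 of shCTSL Day 2 the shCTSL changes were 7.73 and 0.38, and without replicate 2 they were 8.02 and 0.08, the second not called in either.

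The breakdown enzymes reached the highest levels of the 9 genes. Cyp26a1 (19:37772298-37776018, mm9, plus strand), the best known early target of retinoic acid, was at 1.6 and 0.867 CPM in shSC at Day 0, at 1323 and 1282 at Day 2 and at 583.0 and 626.4 at Day 4. In shCTSL it was at 1.49 and 1.79, then 1842 and 1477, then 685.5 and 672.9. The days did not overlap in either line, and Day 4 stood at 46.4% of Day 2 in shSC and at 40.9% in shCTSL. The log2 change to Day 2 was 10.07 (SE 0.24) in shSC and 9.99 (SE 0.24) in shCTSL, and the change from Day 2 to Day 4 was -1.11 (SE 0.15) and -1.29 (SE 0.15), all called. In shCTSL these stayed called at 9.87 and -1.14 without replicate 1 of Day 2, and at 10.15 and -1.44 without replicate 2.

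Cyp26b1 (6:84521938-84543740, mm9, minus strand), its paralog with the same reaction, was not called lower from Day 2 to Day 4. It was at 0.458 and 0.310 CPM in shSC at Day 0, at 478.8 and 459.5 at Day 2 and at 623.1 and 604.5 at Day 4. Levels in shCTSL were 0.522 and 1.69 CPM, then 268.9 and 456.0, then 521.6 and 478.7. The mean was highest at Day 4 in both lines, and the days did not overlap. The log2 change to Day 2 was 10.26 (SE 0.60) in shSC and 8.46 (SE 0.45) in shCTSL, both called, and from Day 2 to Day 4 it was 0.39 (SE 0.25, adjusted p = 0.277) and 0.46 (SE 0.25, adjusted p = 0.19), neither called. The shCTSL value turns on which Day 2 library is kept: it was 0.11 (adjusted p = 0.433) without replicate 1 and 0.89 (adjusted p = 5.83e-06), a call, without replicate 2, where 39.2% of all genes were called between these days in shCTSL. The change to Day 2 in shCTSL was 8.85 and 8.05 in the same fits, called in both.

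The levels of the paralogs came closer together from Day 2 to Day 4, as Cyp26a1 went from 7.18 and 7.24 times Cyp26b1 per kilobase in shSC at Day 2 to 2.43 and 2.69 times at Day 4. In shCTSL the ratio was 8.41 and 17.8 in the 2 Day 2 libraries, and 3.41 and 3.65 at Day 4. The ratio at Day 0 rests on 11 reads of Cyp26b1 in shSC and 23 in shCTSL. Per kilobase, Cyp26a1 at Day 2 averaged 734.7 CPM per kb in shSC, above Cyp26b1 at 101.9, Crabp2 at 94.5, Dhrs3 at 60.6 and Stra6 at 38.7. The value for Stra6 depends on an annotated exon length of 5.83 kb, the longest of the 9.

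**Figure D2:**
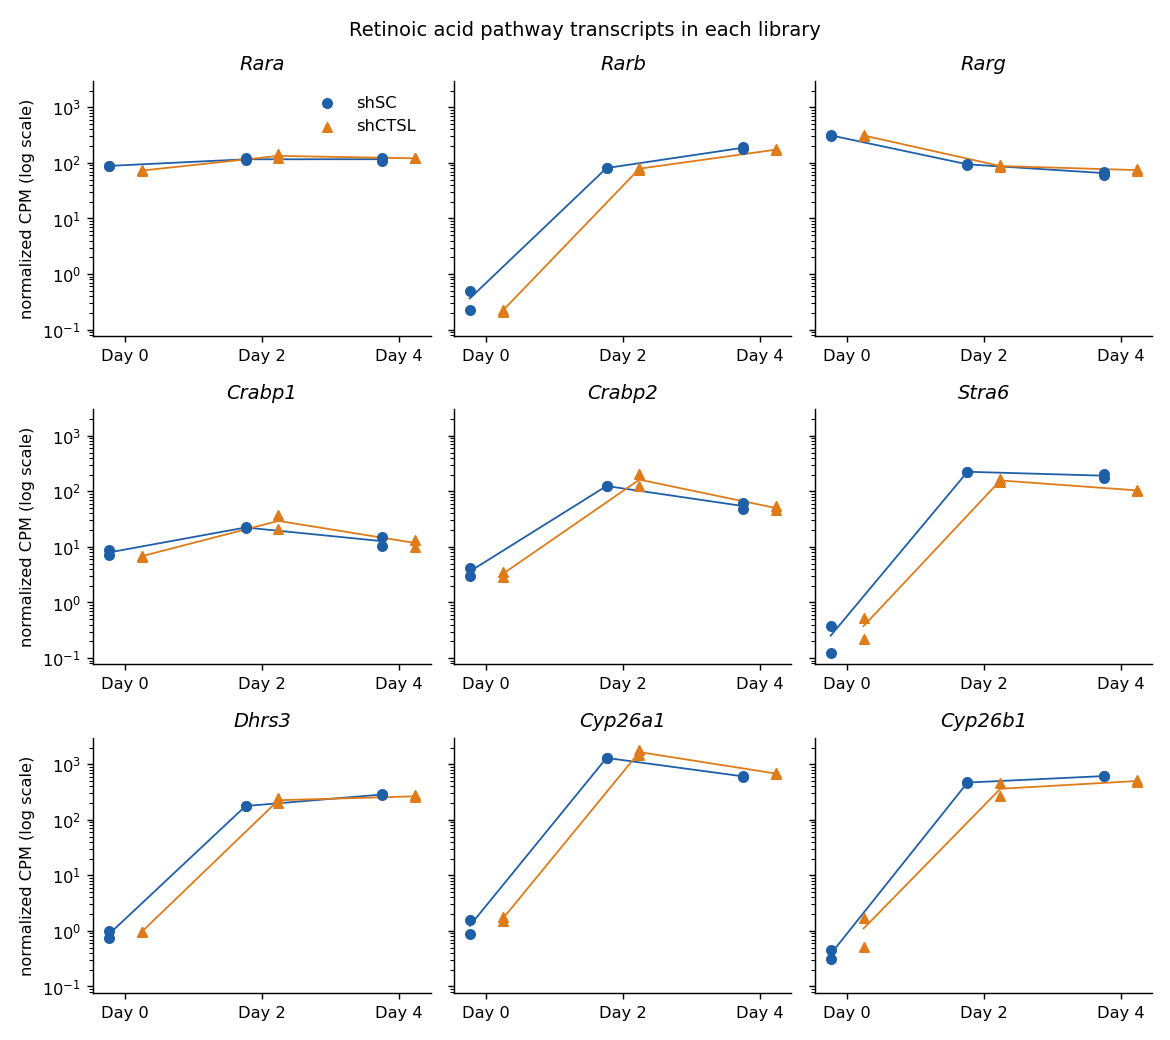
Normalised CPM of each gene in each library on a log axis, by day; circles are shSC, triangles shCTSL, and lines join the group means of 2 libraries. Rarg starts at 304.4 to 323.1 CPM and declines while Rarb climbs to between 167.4 and 197.0, and Stra6 is lower in shCTSL at Day 2 and Day 4. Neither Stra6 difference was called.

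Counted together, 7 of the 9 genes were called higher and 1 lower (Rarg) from Day 0 to Day 2 in shSC, against 29.3% and 25.3% of all genes tested. The median log2 change of the 9 was 7.68, and that of all genes 0.02. Cyp26b1, Cyp26a1 and Stra6 stood 10th, 13th and 16th from the top of the 15532 genes by log2 change, and Rarb and Dhrs3 76th and 80th, while Crabp1 stood 2885th. In shCTSL over the same days 8 were called higher and 1 lower, against 30.9% and 24.6% of genes. From Day 0 to Day 4, 6 were called higher and 1 lower in shSC (background 32.1% and 28.7%), and 8 higher and 1 lower in shCTSL (32.3% and 27.6%). Rara and Crabp1, at 0.40 and 0.67 on the log2 scale, are the genes not called in shSC, and Crabp1 was called there under 10 of 23 alternatives.

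From Day 2 to Day 4 the 9 genes split. In shSC 2 were called higher (Rarb and Dhrs3), against 11.4% of genes, and 3 lower (Cyp26a1, Crabp1 and Crabp2), against 12.4%. In shCTSL 1 was called higher (Rarb), against 11% of genes, and 4 lower (Cyp26a1, Crabp1, Crabp2 and Stra6), against 12.4%. Rarb was therefore called higher, and Cyp26a1, Crabp1 and Crabp2 lower, in each line.

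**Figure D3:**
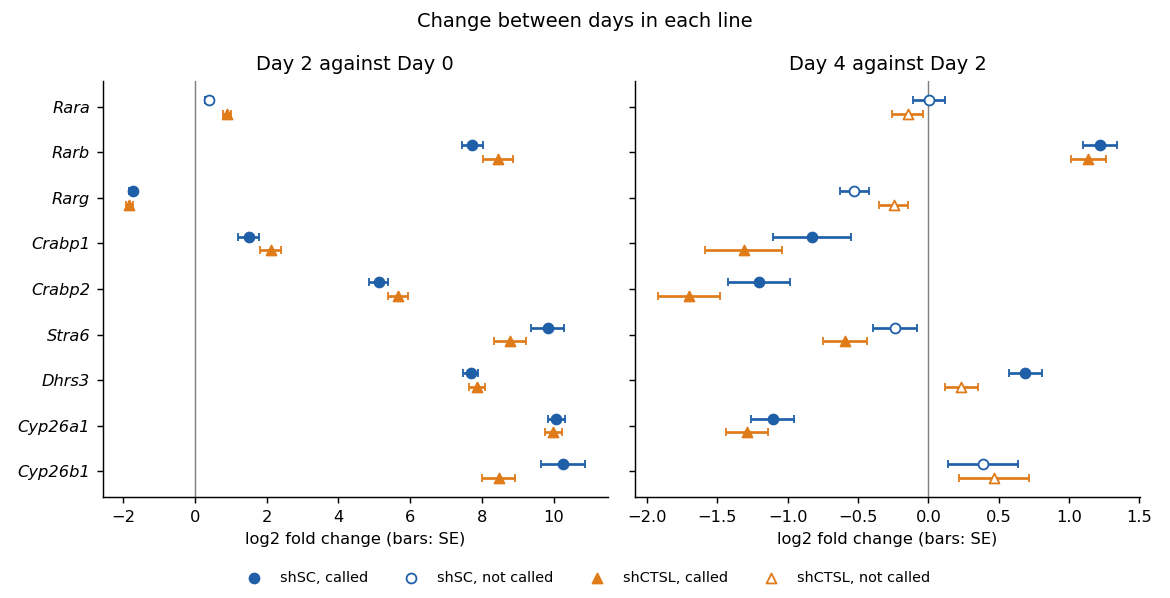
Log2 fold change of each gene from Day 0 to Day 2 (left) and from Day 2 to Day 4 (right) by edgeR, with bars of 1 SE; circles are shSC, triangles shCTSL, and filled symbols are called. Stra6, Dhrs3, Rarb and both Cyp26 genes lie beyond 7 on the left, and on the right Rarb lies above 1 and Crabp2 below -1 in both lines. For genes with few reads at Day 0 the SE can be smaller than counting error.

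Whether the knockdown altered this program was tested on each day. None of the 9 genes was called between shCTSL and shSC at Day 0, where 6 genes in all were called (0.0386%), at Day 2, where 10 were (0.0644%), or at Day 4, where 2 were (0.0129%). The unadjusted p was under 0.05 for 1, 3 and 1 of the 9 genes, against 7.26%, 19.4% and 12.2% of all genes tested. With DESeq2, where 0.309%, 0.805% and 0.85% of all genes were called, the number of the 9 called was 0, 0 and 1.

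That gene was Stra6. Its log2 difference at Day 4 was -0.88 (SE 0.16, 95% interval -1.23 to -0.53), a level 0.544 times that of shSC, with an unadjusted p of 0.000249 and an adjusted p of 0.133. At Day 2 the difference was -0.52 (SE 0.16) with an adjusted p of 0.222. The Day 4 difference was of like size in all 23 alternatives, from -1.0 to -0.75, and its adjusted p ranged from 3.18e-05 to 0.956. It was called in 8 of them, which include DESeq2 (adjusted p = 3.18e-05), a fit of the 4 Day 4 libraries only (adjusted p = 0.000945) and a fit without both shCTSL Day 2 libraries (-0.87, adjusted p = 5.89e-05). In these fits, in that order, 0.85%, 4.83% and 5.89% of all genes were called between the lines at Day 4. The call of Stra6 in them is therefore read against a larger background. At Day 0, with 7 reads in shSC and 8 in shCTSL, no difference was detectable at this depth.

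The other members with an unadjusted p under 0.05 were Rara at Day 0, at -0.28 (SE 0.11), Dhrs3 at Day 2, at 0.35 (SE 0.12), and Cyp26a1 at Day 2, at 0.35 (SE 0.15). By edgeR their adjusted p-values were 0.619, 0.222 and 0.25. Both Day 2 differences were smaller without replicate 1 of shCTSL Day 2, at 0.18 for Dhrs3 and 0.19 for Cyp26a1, and larger without replicate 2, at 0.50 for each, still under 1.5-fold. The 95% intervals reflect the spread that the fit estimated over the libraries. Where Day 0 counts are low they can be narrower than counting error. For Rarb to Day 2 in shSC the fit gave 7.07 to 8.38 on the log2 scale, and counting alone a wider 120- to 431-fold. Each line is a single stable line, so the intervals do not bound an effect of the knockdown. At Day 4 the intervals ran from -0.20 to 0.30 on the log2 scale for Rara and from -0.39 to 0.16 for Rarb. They ran from -0.17 to 0.51 for Cyp26a1 and from -0.38 to 0.16 for Dhrs3, and more widely for Crabp1, from -0.73 to 0.53. For Cyp26b1 they ran from -0.17 to 3.01 at Day 0, where the 2 shCTSL libraries, at 0.522 and 1.69 CPM, lay apart, and from -0.85 to 0.26 at Day 4. No member was called for a difference between the lines in its change from Day 0 to Day 2 or from Day 2 to Day 4. No gene at all was called in either test (0%), and the unadjusted p was under 0.05 for 2 members in the first (Rara and Cyp26b1), against 11% of genes, and for 1 in the second (Dhrs3), against 4.85%. With DESeq2 there were 24 and 11 genes called in these tests and 0 members. Without replicate 2 of shCTSL Day 2, 3 members were called in the first test (Cyp26b1 at -2.21, Crabp1 at 0.97 and Crabp2 at 0.85), against 26% of all genes, and 3 in the second (Crabp1 at -0.83, Crabp2 at -0.80 and Dhrs3 at -0.61), against 14.7%. Without replicate 1 the members called were 1 (Rara) and 0, against 1.89% and 3.57%.

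**Figure D4:**
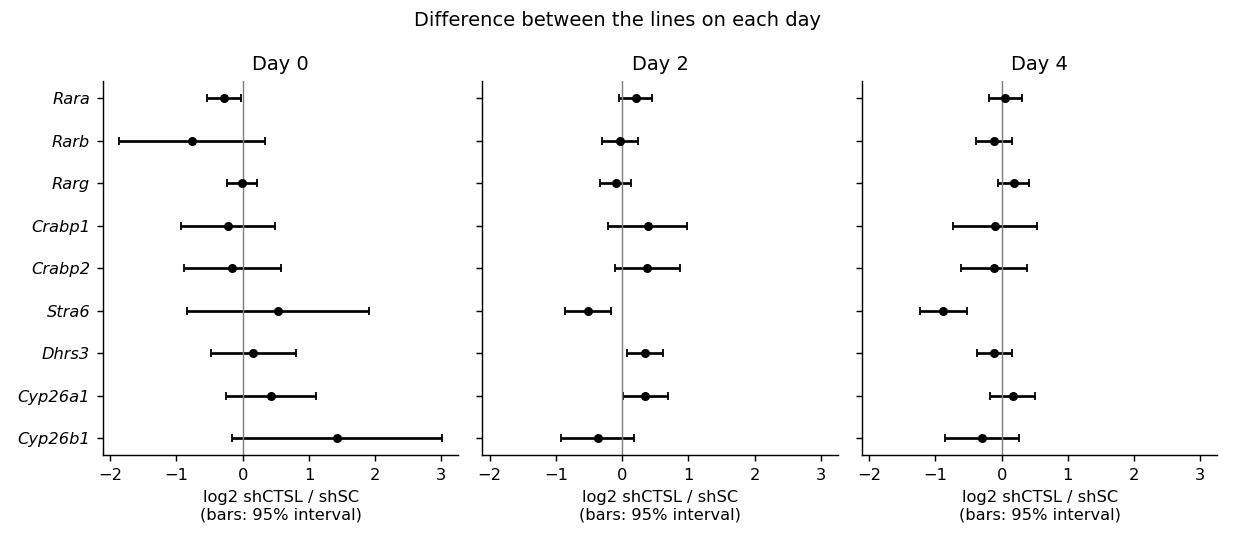
Log2 difference between shCTSL and shSC for each gene on each day, with 95% intervals from the edgeR fit. Only Stra6 lies clear of 0 on both EB days, at -0.52 at Day 2 and -0.88 at Day 4, and none of the differences was called. The intervals at Day 0 are widest for the genes with few reads, where they can still be narrower than counting error.

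The order of group levels differed by gene. With 2 libraries per group an absence of overlap says little on its own, and its share over all genes was not taken. For Rarb the 6 groups ran from shCTSL Day 0 through shSC Day 0 and both Day 2 groups to Day 4, and the lines overlapped at Day 2 and at Day 4. For Rarg the order ran from shSC Day 4 up to Day 0, where the lines overlapped, with no overlap among the 4 EB groups. For Crabp1 and Crabp2 the lines overlapped at Day 2 and Day 4, and for Crabp2 also at Day 0. For Stra6 the EB groups ran upward from shCTSL Day 4 through shCTSL Day 2 and shSC Day 4 to shSC Day 2, none overlapping the next. For Cyp26b1 the shSC Day 2 and shCTSL Day 4 groups overlapped, and for Rara both shSC EB groups and shCTSL Day 4 formed an overlapping run.

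The spread within shCTSL Day 2 touched the short and long members in opposite senses. Crabp1, with 0.80 kb of exon, was 1.78 times higher in replicate 1 than in replicate 2, and Crabp2, with 1.32 kb, 1.63 times higher. Cyp26b1, with 4.6 kb, was 1.70 times higher in replicate 2. The other long members differed less, with replicate 2 higher 1.17-fold for Rara, 1.05-fold for Rarg and 1.14-fold for Stra6, the longest. Replicate 1 was higher 1.25-fold for Cyp26a1 and for Dhrs3, and replicate 2 was higher 1.09-fold for Rarb. Medians of the log2 ratio of replicate 1 to replicate 2 were taken over tested genes of known exon length that averaged at least 5 normalised CPM. In this group the median was 0.90 under 1 kb and -0.38 over 4 kb, and in the other groups these medians lay between -0.19 and 0.17. Without replicate 2, the line differences at Day 2 for Crabp1 (0.75), Crabp2 (0.69), Cyp26b1 (-0.81) and Stra6 (-0.62) were called. In that fit 31.6% of all genes were called between the lines at Day 2. Without replicate 1 none of the 9 was, against 0.604% of all genes, and Crabp1 stood at -0.08. The part of length in these differences was not tested beyond an offset for exon length, under which no member was called at Day 2.

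**Figure D5:**
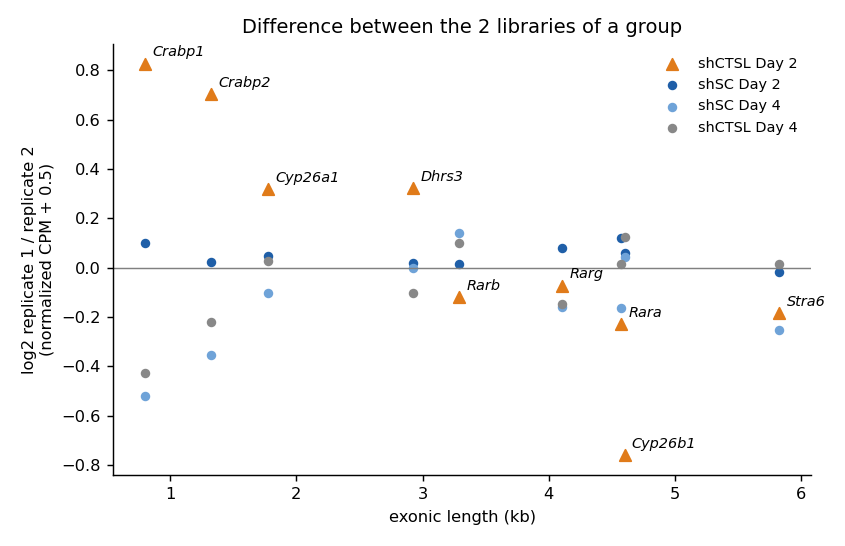
Log2 ratio of replicate 1 to replicate 2, from normalised CPM with 0.5 added, against exon length in kb, for the 9 genes in the 4 EB groups. In shCTSL Day 2 (triangles) Crabp1 and Crabp2 lie at 0.83 and 0.71 and Cyp26b1 at -0.76, and in the other EB groups the 9 genes lie between -0.52 and 0.14.

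Around the 9 genes, other parts of the pathway moved as follows from Day 0 to Day 2 in shSC. Of the 3 retinoid X receptors, the partners of the RARs, 1 rose, Rxra by 0.99 (SE 0.12) on the log2 scale, and Rxrb, at -0.05, and Rxrg, at 0.04, were not called. In this comparison 29.3% of all genes were called higher and 25.3% lower. Of 8 coregulators 2 rose and 2 fell, shares close to those of all genes. Nrip1, a corepressor known to be induced by retinoic acid, rose by 3.08 (SE 0.61), and the coactivator Ncoa3 fell by 1.12 (SE 0.23). Of 7 genes of retinoid storage and transport, 6 were tested, 4 rose and 1 fell. Lrat, which stores retinol as esters, rose by 3.82 (SE 0.38). Ttr, the partner of RBP4 in plasma, was listed at 0 in both shSC libraries at Day 0 and averaged 7.09 CPM at Day 2.

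Of 14 genes of retinol oxidation and retinoic acid synthesis 13 were tested, and from Day 0 to Day 2 in shSC 5 rose and 4 fell, with a median log2 change of 0.54, not far from the 29.3% and 25.3% of all genes called higher and lower. From Day 2 to Day 4, 4 of the 13 rose and 0 fell, with a median of 0.16, against 11.4% and 12.4% of all genes. Aldh1a2, the main retinaldehyde dehydrogenase of the early embryo, averaged 1.57 CPM at Day 0, 2.31 at Day 2 and 110.8 at Day 4. Its log2 change was 0.54 (SE 0.24, adjusted p = 0.0643) in the first interval and 5.59 (SE 0.18, adjusted p = 2.13e-07) in the second, and in shCTSL the second change was 5.51 (SE 0.21). Rdh10, which makes retinal from retinol, rose by 0.91 (SE 0.15) and then by 1.33 (SE 0.13) in shSC. The largest changes of Cyp26a1, Cyp26b1, Stra6 and Dhrs3 thus came in the first interval, and that of Aldh1a2 in the second. Cyp26c1, the third breakdown enzyme, rose by 6.39 (SE 0.36) to an average of 17.8 CPM at Day 2 in shSC.

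Of 14 known targets of retinoic acid 13 rose from Day 0 to Day 2 in each line, and Gbx2 was not called in either. Of all genes tested, 29.3% were called higher over these days in shSC and 30.9% in shCTSL. Stra8, a gene of meiotic entry, rose by 8.84 (SE 0.32) in shSC. From Day 2 to Day 4 in shSC, 5 of the 14 rose and 4 fell, against 11.4% and 12.4% of all genes. The log2 changes of the 14 in this interval ran from -2.51 to 2.20. Nr2f1, an orphan nuclear receptor, rose by 2.20 (SE 0.23), while Cdx1 went from an average of 42.4 CPM to 7.42. These lists were chosen with earlier results of these data known.

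Genes whose group means ran closest to each member were picked among 11808 genes by the root-mean-square difference of centred log2 levels over the 6 groups. Nr2f2, a further orphan nuclear receptor, was closest to Rarb, at 0.23 log2 units. Hoxd1 was closest to Crabp2 at 0.14, Hoxb3 to Dhrs3 at 0.27, Zfp703 to Stra6 at 0.30, Stra8 to Cyp26a1 at 0.46 and Hoxa5 to Cyp26b1 at 0.49. A smaller value means a closer likeness, so the patterns of the Cyp26 genes had the least close counterparts. Levels of Rara, Rarg and Crabp1 span a smaller range, and their closest counterparts were Fhod1 at 0.05, Dapp1 at 0.05 and Agpat3 at 0.09. Among the next closest were Foxc2 and Hoxb13 for Rarb, Egfem1 for Crabp2, Gas1 and Hoxb4 for Dhrs3, Hoxb8 and Hoxb2 for Stra6, Hoxa5 and Hoxb2 for Cyp26a1, and Hoxb2 and Stra8 for Cyp26b1.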

How the data were processed

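RNA-seq libraries of polyadenylated RNA were made by the authors with a directional kit, aligned to mm9 with STAR 2.3.0e, filtered with SAMtools 0.1.19 and counted per gene with featureCounts 1.6.2. The sources used here do not state the strand setting of the counting. The deposited table holds unnormalised counts for 24495 genes in 12 libraries, 2 per group, of 11171111 to 27155553 counts. Groups came from the GEO labels. The members and gene lists were chosen with earlier results of these data known, and the genes named outside the members come from these lists or from the rules stated beside them.

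Counts were fitted in R 4.3.3 with edgeR 4.0.16 (TMM, quasi-likelihood, 1 model over 6 groups) after a filter at a minimum count of 10, which kept 15532 genes. Calls required a Benjamini-Hochberg adjusted p under 0.05 over all genes tested and at least 1.5-fold. SEs are Wald errors of that fit and can be smaller than counting error for genes with few reads at Day 0. Normalised CPM uses TMM library sizes, and levels per kilobase use the union of exons in GENCODE M1. Likeness of patterns used genes outside the members with a mean of at least 5 normalised CPM in the highest group, and a pseudocount of 0.5. The script was tested on simulated data. DESeq2 1.42.0, limma 3.58.1 with library weights, other filters, normalisations and subsets of libraries were the alternatives, and an offset for exon length and a fit without both shCTSL Day 2 libraries were added after seeing the data. Intervals on counts are exact and cover counting error only. Figures used matplotlib 3.10.9. Some genes counted in the pathway lists are not reported here by name.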

Additional observations from a re-analysis of the deposited data

How the results depend on the processing

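Of the single-gene values under alternatives, 2121 kept their direction and side of the threshold, 34 crossed it upward, 39 crossed it downward and 35 changed sign. No change of sign touched a called value. For the number of members called, a required log2 change of at least 1.5 took the 5 called from Day 2 to Day 4 to 0 in shSC and to 1 in shCTSL, where fitting only the libraries compared gave 3 and leaving out single libraries 3 to 5. Between the lines at Day 4 the number was 1 (Stra6) under DESeq2, no filter, only the libraries compared, limma with library weights, the length offset and the fit without both shCTSL Day 2 libraries, and 0 to 1 when leaving out single libraries. Leaving out single libraries gave 0 to 4 at Day 2, and 0 to 3 in each test of a difference in change. The 3 in shCTSL came without replicate 1 of shCTSL Day 4, and the 4 and 3 between the lines without replicate 2 of shCTSL Day 2; the cause was not tested.

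Signs changed near 0. For Rara from Day 2 to Day 4 in shSC the values were -0.015 with no filter, -0.021 with only the libraries compared, -0.003 by limma with weights and -0.02 without both shCTSL Day 2 libraries, and -0.081 to 0.085 when leaving out single libraries. For Rarg between the lines at Day 0 they were 0.014 by RLE normalisation and by DESeq2, 0.013 with only the libraries compared, 0.027 with the length offset, 0.004 without both shCTSL Day 2 libraries and -0.055 to 0.044 when leaving out single libraries. Crabp1 between the lines at Day 2 was at -0.025 with the length offset. Leaving out single libraries gave, between the lines at Day 0, -0.376 to 0.076 for Crabp2, -0.037 to 0.361 for Dhrs3 and -0.107 to 1.45 for Stra6. At Day 2 it gave -0.101 to 0.031 for Rarb, -0.08 to 0.75 for Crabp1 and -0.007 to 0.688 for Crabp2, and at Day 4 -0.032 to 0.135 for Rara, -0.357 to 0.185 for Crabp1 and -0.293 to 0.067 for Crabp2. For the difference in change to Day 2 it gave -0.547 to 0.308 for Cyp26a1 and -0.018 to 0.37 for Dhrs3, and to Day 4 -0.256 to 0.509 for Cyp26b1 and -0.83 to 0.008 for Crabp1.

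Replicate numbers were not treated as pairs in the main fit. The differences between replicates correlated between groups, across genes of at least 5 normalised CPM, at -0.664 to 0.402. Both extremes involve shCTSL Day 2, whose replicates differed with exon length, so these correlations cannot settle whether the numbers pair samples. A replicate block took away 2 calls, both of Crabp1, from Day 2 to Day 4 in shSC (adjusted p = 0.067) and from Day 0 to Day 4 in shCTSL (adjusted p = 0.0518), and left 4 members called in the former. Over all genes the calls between the lines at Day 0, Day 2 and Day 4 went from 6, 10 and 2 to 48, 125 and 132 with DESeq2, to 29, 60 and 119 with no filter, to 269, 0 and 711 with only the libraries compared, to 254, 0 and 723 with limma, to 4, 0 and 1 with the block and to 34, 43 and 33 with the length offset. They were 211, 96 and 926 without shCTSL Day 2 replicate 1 and 214, 5012 and 924 without replicate 2. Of the 27 genes picked as most similar, 3 for each member, 12 remained with a pseudocount of 2. With 2 libraries per group, small differences between the lines are beyond reach, and at Day 0 the low counts of Rarb, Stra6, Cyp26b1 and Dhrs3 limit every fold that starts there.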
